A study of Mus musculus with 12 samples.

Results

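Fragments of 3 mitochondrial tRNAs, tRNA-Phe (GAA), tRNA-Val (TAC) and tRNA-Leu (TAA), were followed in small RNA libraries of mouse liver. Members were all distinct sequences that the read table listed under the mature tRNAs chrM.tRNA1-PheGAA, chrM.tRNA2-ValTAC and chrM.tRNA3-LeuTAA, whatever their fragment subtype. They numbered 2999 of the 87699 sequences in the table and held 12717 of 1705883 reads, which was 0.746% of all reads and 4.98% of the 255169 reads of the 21 mature mitochondrial tRNAs listed. Val had 1513 sequences and 5716 reads, Leu had 1113 sequences and 6225 reads, and Phe had 373 sequences and 776 reads. No member was listed under another tRNA. Reads listed under the precursors of the same genes (4800 for Phe, 104000 for Val and 814 for Leu) were not members and enter below only as other sums with which levels were compared.

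The livers came from male B6D2F1/Crl mice labelled as 8 to 12 weeks old. NS-KO mice (NSun2-/-) carried a CRISPR/Cas9 deletion in exon 2 of NSun2, produced in zygotes and therefore not limited to hepatocytes, and WT mice were wild type at this gene. Each genotype was sampled at D0 with corn oil alone, at D3 after 1 injection of CCl4, a liver toxin, and at D27 after repeated injections, with 40% CCl4 in corn oil given intraperitoneally at 2 mL per kg. The 6 groups had 2 libraries each, described in the methods as independent biological replicates. The libraries held RNA of 14 to 40 nt from whole liver, so neither NSun2 mRNA nor cell type markers were measured, and fewer cells of a type and less RNA per cell cannot be told apart.

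Mitochondrial tRNA genes lie between the other genes of the mitochondrial genome and are cut out of long transcripts, which frees the neighbouring ribosomal and messenger RNAs. The 3 tRNAs flank the mitochondrial rRNAs, so cuts at their ends also free the rRNAs. After cutting, the CCA end is added without a template, and purines at position 9 of many mitochondrial tRNAs are methylated. NSUN2 is a methyltransferase for 5-methylcytosine in tRNAs, first known for cytosolic tRNAs and also reported to act on mitochondrial ones.

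The 3 tRNAs with CCA are shown because every fragment below is given by its positions in them, counted from 1 at the 5′ end, with the anticodon in capitals. The first decodes phenylalanine codons.
chrM.tRNA1-PheGAA: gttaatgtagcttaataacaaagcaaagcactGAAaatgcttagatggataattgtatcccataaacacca
The second decodes valine codons.
chrM.tRNA2-ValTAC: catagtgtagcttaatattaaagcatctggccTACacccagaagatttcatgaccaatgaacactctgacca
The third decodes the leucine codons that begin with UU and end in a purine.
chrM.tRNA3-LeuTAA: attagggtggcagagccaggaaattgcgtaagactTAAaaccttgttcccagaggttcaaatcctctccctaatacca
On the mitochondrial genome, TrnF (Phe) spans 1 to 68, before mt-Rnr1 (12S rRNA) from 70. TrnV (Val) spans 1025 to 1093, directly between mt-Rnr1, which ends at 1024, and mt-Rnr2 (16S rRNA), which starts at 1094. TrnL1 (Leu) spans 2676 to 2750, between mt-Rnr2, which ends at 2675, and ND1, which starts at 2751 and encodes a subunit of complex I. These coordinates of the read table equal those of the RefSeq genes on GRCm38.p6. Phe and Val share a run of 12 bases from position 6 of both, and the longest run that Leu shares with Phe is 5 bases and with Val 6 bases.

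The abundant fragments are shown next because they show where the most frequent reads of each tRNA began and ended. A base in capitals differs from the tRNA at the position named. Leu gave mainly 5′ fragments and long internal fragments, and the first of these was the most abundant member, with 519 reads.
Leu 22 to 58, C58A: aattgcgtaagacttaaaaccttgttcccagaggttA
Leu 30 to 69, C69A: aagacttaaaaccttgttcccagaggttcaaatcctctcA
Leu 1 to 21: attagggtggcagagccagga
Leu 1 to 22: attagggtggcagagccaggaa
Leu 1 to 25: attagggtggcagagccaggaaatt
The 5 Leu fragments had 519, 164, 434, 234 and 162 reads. The most abundant Val fragments came from its 3′ part, with 175, 125 and 108 reads.
Val 47 to 67: ttcatgaccaatgaacactct
Val 40 to 72: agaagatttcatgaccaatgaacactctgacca
Val 35 to 72: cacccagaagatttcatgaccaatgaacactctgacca
Val 46 to 67 and Val 45 to 67, which start 1 and 2 bases further 5′, had 97 and 87 reads. The most abundant Phe fragments mostly ended in the anticodon or at the CCA end (Phe 31 to 50 did not), and none had more than 24 reads.
Phe 19 to 35: caaagcaaagcactgaa
Phe 51 to 71: aattgtatcccataaacacca
Phe 21 to 35 had 23 reads, Phe 52 to 71 had 19 and Phe 31 to 50 had 17. Most sequences were rare, since 251 Phe, 853 Val and 678 Leu sequences had 1 read, and only 11, 118 and 92 had 10 or more. Exact matches made up 66.1% of Phe reads, 56.0% of Val reads and 42.0% of Leu reads.

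Libraries held 46937 to 221446 reads in NS-KO livers and 81515 to 275568 reads in WT livers. Reads of the 3 tRNAs numbered 3213 and 3232 in the NS-KO D3 libraries and 381 to 849 in each of the other 10. The distinct member sequences numbered 1349 and 1381 in the NS-KO D3 libraries and 218 to 391 in the others. Fragments of the 5′ class tRF-5c, whatever their tRNA, took 12.5% to 30.4% of reads in NS-KO libraries and 35.6% to 71.5% in WT libraries. Mature mitochondrial tRNAs took 30.3% and 50.1% of reads in the NS-KO D3 libraries, 20.4% to 25.0% in the other NS-KO libraries and 4.81% to 12.0% in WT libraries. The parts of depth and of these shares in the results below were not tested apart from the scalings given beside them. Levels are given in CPM, the counts scaled to the tRNA reads of the library, where a count of 0 allows up to 10.9 to 63.9 CPM. Fold changes were fitted with limma on log2 CPM after scaling by trimmed means of M values (TMM), which set NS-KO D0 and D27 libraries lower and WT D0 and D27 libraries higher, with factors of 0.549 to 1.46. Over all 159 tRNA sums fitted, the median log2 difference over days between NS-KO and WT was 0.38 with these factors, 1.05 with library size alone, 0.20 and 0.06 with TMM factors taken from other sets of features, and -0.81 after scaling to the other mitochondrial tRNAs. Directions below hold relative to these shifts.

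Val fragments were higher in NS-KO livers, with WT livers lower on each day and the widest gap at D3. Val had 4392 and 3537 CPM in NS-KO D0 livers, against 728 and 972 CPM in WT D0 livers. At D3 it had 7957 and 14977 CPM in NS-KO livers, against 2638 and 1484 CPM in WT livers. At D27 it had 2704 and 3338 CPM in NS-KO livers, against 1156 and 787 CPM in WT livers. The genotypes did not overlap on any day, as for 27.0% of all tRNA sums in CPM. The 2 NS-KO D3 libraries stood above all others. After TMM scaling, Val was higher over days by a log2 of 1.42 ± 0.20 (SE, limma, adjusted p = 4.2e-05, n = 6 libraries per genotype) and at D3 by 2.45 ± 0.34 (adjusted p = 2.9e-05). The difference was 1.17 ± 0.34 at D0 (adjusted p = 0.025) and 0.64 ± 0.34 at D27 (adjusted p = 0.18). The D0 call was lost with TMM factors from fragments at 20 CPM (log2 0.82, adjusted p = 0.13) and without any 1 of the 4 D0 libraries (adjusted p 0.086 to 0.13). It was also lost with TMM factors from the sums, without tRF-5c in the library size, with exact matches only and without a filter. Scaled to the other mitochondrial tRNAs, it was 0.26 (limma, adjusted p = 0.60).

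Phe fragments, from the gene at the start of the heavy-strand transcript, were the rarest of the 3 and, like those of Val, were highest in the NS-KO D3 libraries. Phe had 678 and 511 CPM in NS-KO D0 livers, against 128 and 149 CPM in WT D0 livers. At D3 it had 1070 and 1948 CPM in NS-KO livers, against 405 and 191 CPM in WT livers. At D27 it had 213 and 469 CPM in NS-KO livers, against 128 and 123 CPM in WT livers, with only 10 to 34 reads behind each of these 4 values. Phe was higher in NS-KO livers over days by a log2 of 1.20 ± 0.25 (SE, limma, adjusted p = 9.8e-04) and at D3 by 2.31 ± 0.44 (adjusted p = 5.1e-04). It differed by 0.99 ± 0.44 at D0 (adjusted p = 0.12) and by 0.30 ± 0.44 at D27 (adjusted p = 0.69).

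Leu fragments, from the gene between 16S rRNA and ND1, differed least between the genotypes over days, at D0 and at D3. Leu had 5281 and 6754 CPM in NS-KO D0 livers, against 1795 and 2409 CPM in WT D0 livers. At D3 it had 5482 and 8459 CPM in NS-KO livers, against 5287 and 2715 CPM in WT livers, so that the lower NS-KO library lay just above the higher WT library. At D27 it had 5194 and 5320 CPM in NS-KO livers, against 2867 and 1528 CPM in WT livers. The log2 difference was 0.54 ± 0.18 over days (SE, limma, adjusted p = 0.018) and 0.84 ± 0.31 at D3 (adjusted p = 0.046). It was 0.47 ± 0.31 at D0 (adjusted p = 0.29) and 0.31 ± 0.31 at D27 (adjusted p = 0.52). Both Leu calls were weak. The call over days was lost with either other set of TMM factors (0.35 with adjusted p = 0.075, and 0.20 with adjusted p = 0.22) and without NS-KO D0 replicate 2, WT D0 replicate 1, WT D0 replicate 2, WT D3 replicate 2, NS-KO D27 replicate 1 or WT D27 replicate 2 (adjusted p 0.054 to 0.075). The call at D3 was lost without any 1 library except NS-KO D3 replicate 1 (adjusted p 0.058 to 0.21 without the other 11).

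**Figure D1:**
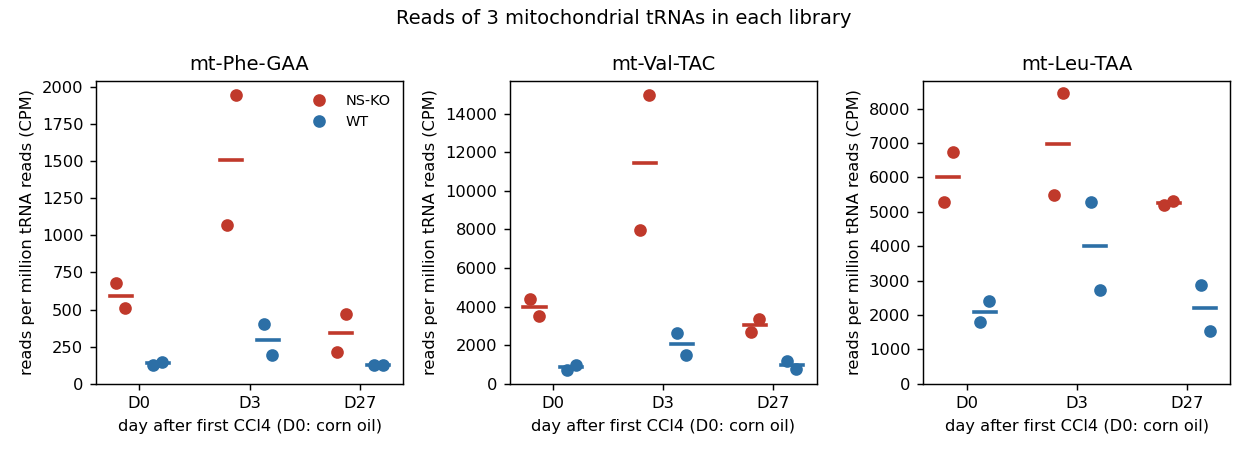
CPM of each tRNA, scaled to the tRNA reads of the library, in each of the 12 libraries, by day, with NS-KO in red and WT in blue; points are libraries and bars are group means. The NS-KO D3 libraries are the highest for Phe and Val, and for Leu the higher WT D3 library (5287 CPM) reaches the level of the NS-KO libraries.

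These counts stand against a high background. Over days 41.5% of the 159 tRNA sums were called higher in NS-KO livers and 10.7% lower, at D3 24.5% higher and 8.81% lower, and at D0 18.2% higher and 3.77% lower. At D27 17.0% of all sums were called higher and 6.29% lower, and none of the 3 tRNAs was, by limma or with voom weights. In CPM every NS-KO library lay above every WT library of its day on all 3 days for Phe, Val and Leu, as for 27.0% of all sums (90.6% at D0, 30.2% at D3 and 83.6% at D27). After TMM scaling this held for Val and Leu on all 3 days and for Phe at D0 and D3, against 20.1% of all sums on all 3 days (60.4%, 35.8% and 50.9% at D0, D3 and D27). The calls over days rested in part on D3. Over D0 and D27 only, a contrast added after the data were seen, Val was higher by 0.90 ± 0.24 (limma, adjusted p = 0.0081). Leu (0.39, adjusted p = 0.16) and Phe (0.65, adjusted p = 0.10) were not called, against 35.8% of all sums called higher and 6.92% lower. The median log2 difference over all 159 sums was 0.50 in this contrast, 0.48 at D0, 0.10 at D3 and 0.44 at D27.

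As a share of all reads, which is scaling to library size alone, the 3 tRNAs took 1.30% ± 0.64 in NS-KO livers and 0.425% ± 0.21 in WT livers (SD, n = 6 each; exact permutation of genotype within days, two-sided p = 0.0093, the smallest that 216 arrangements allow). On this scale every NS-KO library lay above every WT library of its day for 90.6% of all sums at D0, 30.2% at D3 and 83.6% at D27. It did so on all 3 days for 27.0% of all sums, and the permutation test was not run on the other sums. The exact p had this value for each tRNA. Val took 0.615% ± 0.47 in NS-KO livers and 0.129% ± 0.071 in WT livers. Leu took 0.608% ± 0.13 in NS-KO livers and 0.277% ± 0.13 in WT livers, and Phe took 0.0815% ± 0.062 in NS-KO livers and 0.0187% ± 0.011 in WT livers. When reads of class tRF-5c were left out of the total, Leu took 0.755% ± 0.15 in NS-KO livers and 0.678% ± 0.11 in WT livers and no longer differed beyond the spread (exact permutation p = 0.26), and Val and Phe still did (adjusted exact p = 0.019 and 0.037).

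After CCl4, Val and Phe changed in NS-KO livers and not detectably in WT livers. Most other mitochondrial tRNAs did the same, as given below. From D0, Val was higher at D3 in NS-KO livers by a log2 of 1.77 ± 0.34 (SE, limma, adjusted p = 8.6e-04) and Phe by 1.57 ± 0.44 (adjusted p = 0.012), against 18.9% of all sums called higher and 14.5% lower. Leu differed by 0.49 ± 0.31 (adjusted p = 0.23). In WT livers D3 against D0 gave 0.49 ± 0.34 for Val, 0.26 ± 0.44 for Phe and 0.12 ± 0.31 for Leu, none of them called, and limma called 0 of the 159 sums, with 8 higher and 3 lower at an unadjusted p under 0.05 and 0 called with voom weights. The test of the difference between the genotypes did not pass for any of the 3. The interaction at D3 was 1.29 ± 0.48 for Val (adjusted p = 0.073), 1.31 ± 0.62 for Phe (adjusted p = 0.15) and 0.37 ± 0.44 for Leu (adjusted p = 0.60), against 12.6% of all sums called higher and 3.77% lower. For Val it was called with TMM factors from fragments at 20 CPM (1.85, adjusted p = 0.011) or from the sums (1.67, adjusted p = 0.020). D27 against D0 gave no limma call for the 3 tRNAs in either genotype, with Phe lower in NS-KO livers at an unadjusted p under 0.05, against 0.0% of all sums called higher and 1.26% lower in NS-KO livers. The Phe call at D3 was lost without NS-KO D0 replicate 2 (1.35, adjusted p = 0.11) or NS-KO D3 replicate 2 (1.24, adjusted p = 0.13). D27 livers also had more injections than D3 livers, so time and dose cannot be told apart.

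The other mitochondrial tRNAs moved the same way, so the 3 tRNAs were set against them. Of the 11 other tRNAs listed from the heavy strand, the strand that also carries Phe, Val and Leu, 10 were tested and 10 were higher in NS-KO livers over days, by log2 0.63 (Ile) to 1.81 (Leu-TAG). At D3 9 of these 10 were higher, with values from 0.70 (Ile) to 3.72 (His). All 7 light-strand tRNAs tested were higher over days, by 1.03 (Gln) to 2.22 (Pro), and at D3, by 2.41 to 5.12. Among the 20 mitochondrial sums, ordered from the lowest log2 difference over days, Leu was number 1, Phe number 6 and Val number 11, and at D3 they were numbers 2, 6 and 8. At D3 against D0 in NS-KO livers, 8 of the 10 heavy-strand and all 7 light-strand tRNAs were called higher. Ordered by that change, Leu was number 3, Phe number 7 and Val number 10. The interaction at D3 was called higher for 5 of the 10 and for all 7, and Leu, Val and Phe were numbers 3, 5 and 6.

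**Figure D2:**
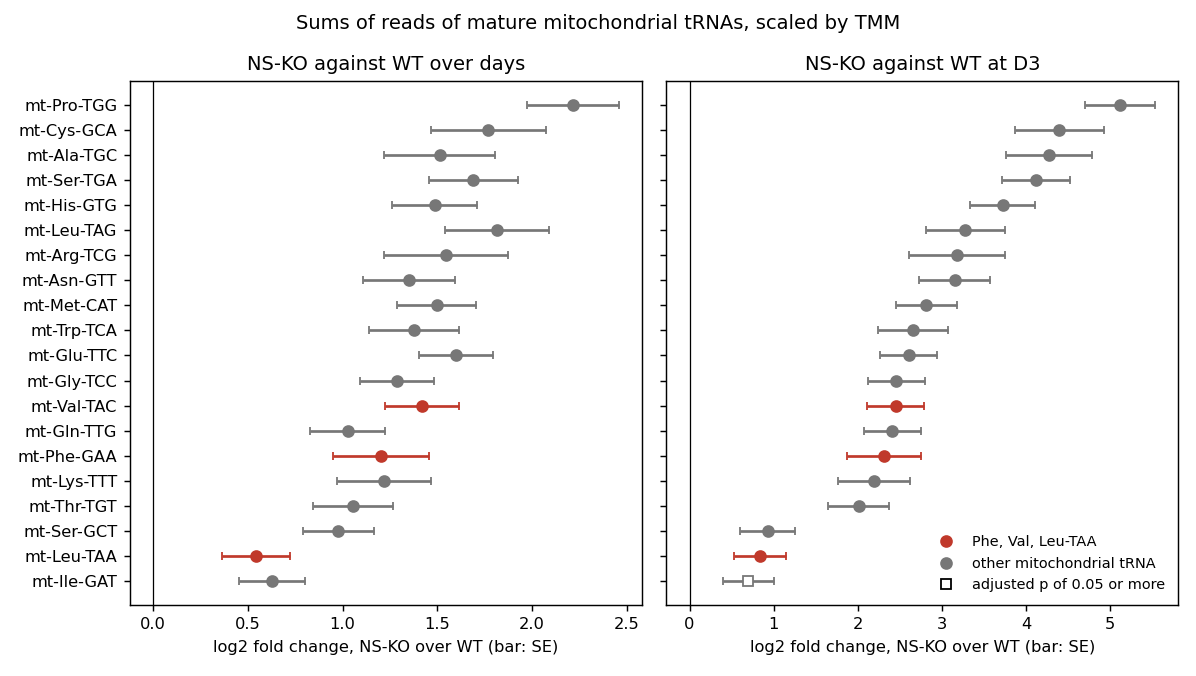
Log2 fold change of NS-KO over WT for the sums of 20 mature mitochondrial tRNAs after TMM scaling, over days on the left and at D3 on the right; points are limma estimates, bars are standard errors, red marks Phe, Val and Leu, and an open square marks an adjusted p of 0.05 or more. Leu (0.54 and 0.84) lies near the low end of both panels, and Val (1.42 and 2.45) and Phe (1.20 and 2.31) lie in the middle.

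Leu made up less of the mitochondrial tRNA reads in NS-KO livers. Its share of mature mitochondrial tRNA reads was 2.11% and 3.30% in NS-KO D0 livers, against 3.59% and 3.56% in WT D0 livers. At D3 it was 1.81% and 1.69% in NS-KO livers, against 4.40% and 3.72% in WT livers. At D27 it was 2.36% and 2.38% in NS-KO livers, against 3.61% and 3.17% in WT livers. No NS-KO library reached any WT library of its day, and the mean was 2.28% ± 0.58 in NS-KO livers and 3.68% ± 0.40 in WT livers (SD, n = 6 each; exact permutation p = 0.0093, adjusted over 4 shares 0.037). How many other tRNAs did not overlap on this scale was not counted, so the lack of overlap is not shown to be particular to Leu. Val took 1.97% ± 0.69 in NS-KO livers and 1.70% ± 0.33 in WT livers (exact permutation p = 0.12), and Phe took 0.262% ± 0.10 in NS-KO livers and 0.249% ± 0.058 in WT livers (exact permutation p = 0.69). In the limma fit scaled to the other mitochondrial tRNAs, Leu fell by 0.73 ± 0.18 on the log2 scale over days (adjusted p = 0.0032) and by 1.23 ± 0.31 at D3 (adjusted p = 0.0030). In this scaling 59.1% of all sums were lower over days and 73.6% at D3. Of the 17 other mitochondrial tRNAs, 1 (Ile) was lower and 2 (Leu-TAG and Pro) were higher over days. At D3, 2 of them (Ile and Ser-GCT) were lower and 7 (Ala, Asn, Cys, His, Leu-TAG, Pro and Ser-TGA) were higher. Val (0.15 over days and 0.38 at D3) and Phe (-0.03 and 0.29) were not called between the genotypes there. At D3 against D0 in NS-KO livers Val was still called higher in this scaling (0.68 ± 0.29, adjusted p = 0.047), and Phe (0.50, adjusted p = 0.30) was not. Of the 17 other mitochondrial tRNAs, 10 were also called higher and 2 lower, so this is not particular to Val. Of all sums, 10.7% were higher and 57.9% lower.

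**Figure D3:**
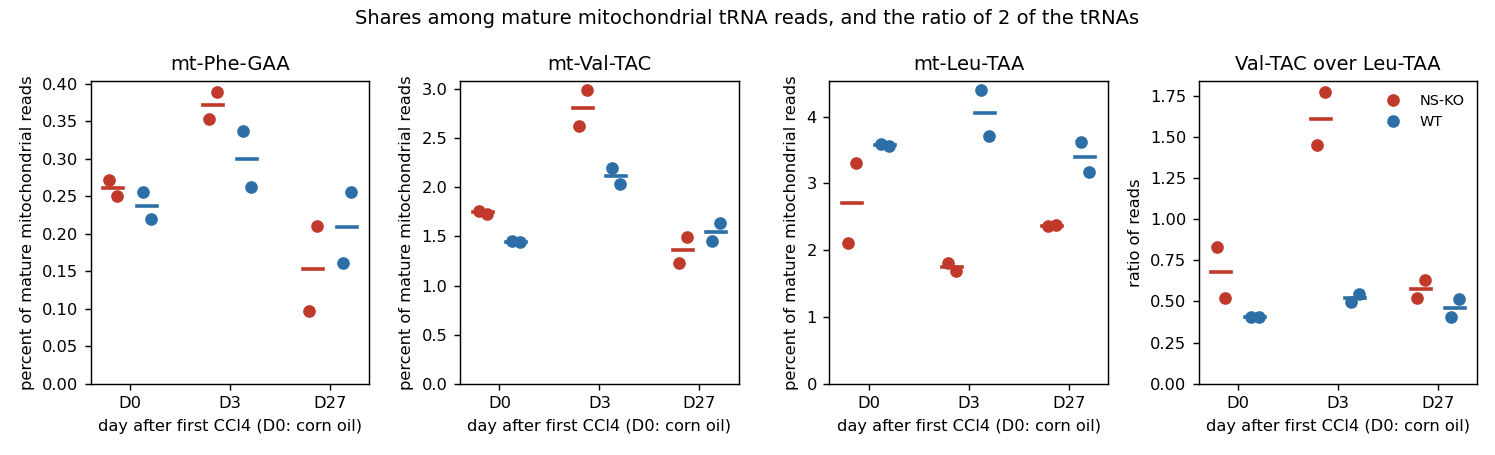
Percent of mature mitochondrial tRNA reads taken by Phe, Val and Leu in each library, and the ratio of Val to Leu reads, by day, with NS-KO in red and WT in blue; points are libraries and bars are group means. Leu lies lower in every NS-KO library than in either WT library of its day, and the Val to Leu ratio exceeds 1 only in the NS-KO D3 libraries (1.45 and 1.77).

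The balance between the 3 tRNAs, a measure that no scaling between libraries changes, was examined after the levels had been seen. For each Leu read there were 0.832 and 0.524 Val reads in NS-KO D0 livers, against 0.406 and 0.404 in WT D0 livers. At D3 there were 1.45 and 1.77 in NS-KO livers, against 0.499 and 0.547 in WT livers, and at D27 0.520 and 0.627 in NS-KO livers, against 0.403 and 0.515 in WT livers. Val outnumbered Leu only in the 2 NS-KO D3 libraries. The log2 ratio was higher in NS-KO livers by 0.88 (exact permutation p = 0.0093, adjusted over 3 ratios 0.028), and by 0.65 with exact matches alone. The adjusted p passed 0.05 without WT D0 replicate 1, WT D0 replicate 2, NS-KO D27 replicate 1, NS-KO D27 replicate 2 or WT D27 replicate 1, where the difference stayed between 0.77 and 0.99. Phe to Leu differed by 0.70 (adjusted exact permutation p = 0.097) and Phe to Val by -0.18 (adjusted p = 0.31).

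Per base of tRNA, Phe was the lowest of the 3 in every library, and Leu was the highest in every library but the NS-KO D3 ones. In the NS-KO D3 libraries Val had 111 and 208 CPM per nt, Leu 70.3 and 108, and Phe 15.1 and 27.4. In the WT D3 libraries Leu had 67.8 and 34.8 CPM per nt, Val 36.6 and 20.6, and Phe 5.70 and 2.69. These levels include the ligation and reverse transcription of each fragment, which were not measured.

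Reads of the 3 tRNAs began and ended at different places, and cleavage itself was not measured. At Leu 58 and 69, 91.3% and 98.6% of the mismatches were at the last base of the read. Those reads match the tRNA only up to the base before it. Reads were at most 40 nt long, which also limits the ends that can be seen. Of Leu reads, 2554 of 6225 started at position 1, and the next most used starts were 30, 22 and 32. Leu reads ended most often at 58 (872 reads), 69 (714) and 21 (643). Val reads started most often at 40 (524 reads), 47 (418) and 50 (349), 3′ of the anticodon, and ended at 72, the last base of CCA (1046 reads), at 67 (867) and at 71 (706). Phe reads started at 1 (112 reads) and 31 (76) and ended most often at 35, the last anticodon base (160 reads), and at 50 (91). Reads of Val thus came from its 3′ part, since position 55 was covered by 83.8% of its reads in NS-KO livers and 85.1% in WT livers, and position 20 by 7.41% in NS-KO livers and 4.51% in WT livers. Leu had a gap near position 28, covered by 15.6% of its reads in NS-KO livers and 23.9% in WT livers.

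**Figure D4:**
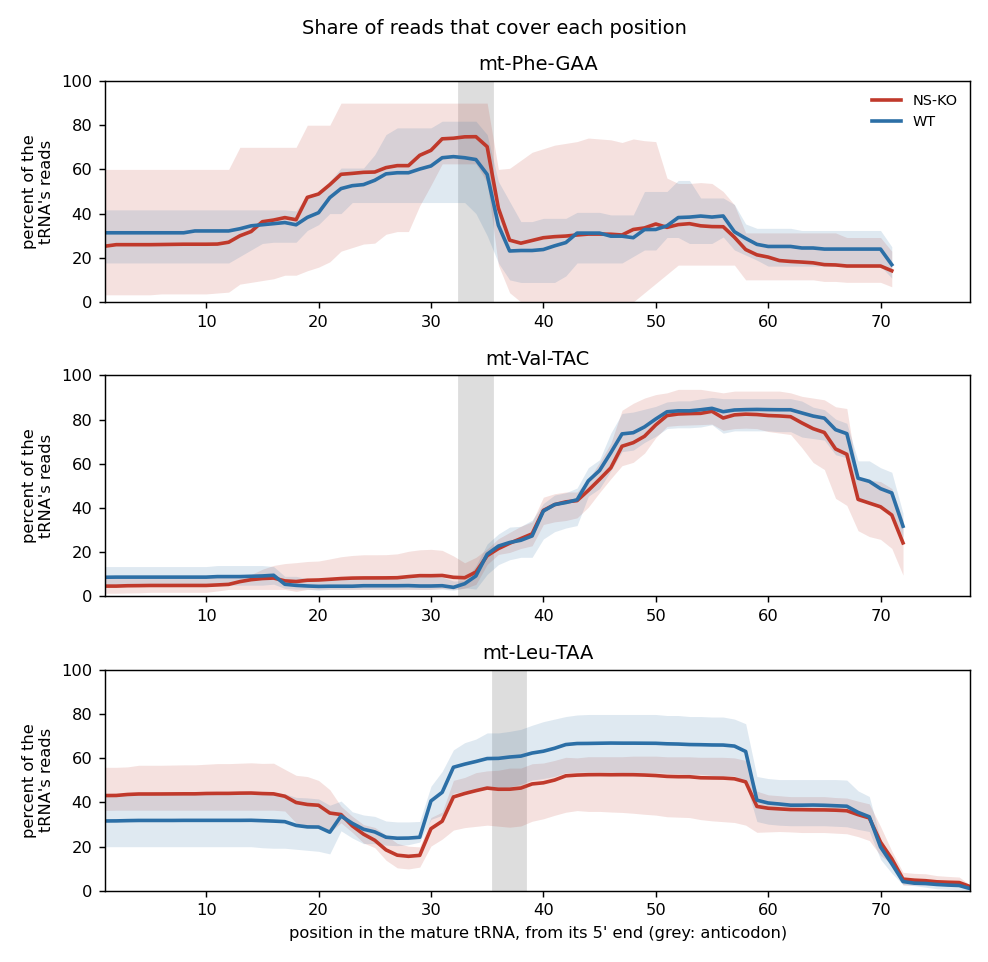
Percent of each tRNA's reads that cover each position, counted from the 5′ end, with the anticodon in grey; lines are means of the 6 NS-KO (red) and 6 WT (blue) libraries, and bands run from the lowest to the highest library. Coverage of Phe is highest at its anticodon, that of Val over its 3′ part, and that of Leu is split by a gap near position 28.

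Reads were called 5′ when they began at positions 1 to 3, 3′ when they ended in the last 4 positions, and internal otherwise. At D3 the genotypes did not overlap in any of the 15 measures of make-up except the share of mismatched Phe reads. The lack of overlap therefore does not single out the measures given here. Leu 5′ reads were 52.7% and 56.1% of Leu reads in NS-KO D3 livers, against 19.95% and 29.3% in WT D3 livers, and the mean length of Leu reads was 27.1 and 26.1 nt in NS-KO D3 livers, against 33.3 and 32.0 nt in WT D3 livers. Internal reads were 69.4% and 71.0% of Val reads in NS-KO D3 livers, against 32.1% and 48.4% in WT D3 livers. For Phe they were 78.1% and 87.9% in NS-KO D3 livers, against 51.5% and 56.8% in WT D3 livers. At D27 these measures overlapped or lay the other way, with Leu 5′ reads at 36.5% and 37.3% in NS-KO livers, against 34.7% and 44.2% in WT livers. The mean length of Phe reads differed most at D27, at 33.5 and 29.6 nt in NS-KO livers, against 25.1 and 25.7 nt in WT livers. Over all days none of the 15 measures of make-up passed the exact permutation test after Benjamini-Hochberg adjustment (smallest adjusted p = 0.19). A test at D3 alone, with 2 libraries against 2, cannot pass 0.05, and none was run.

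**Figure D5:**
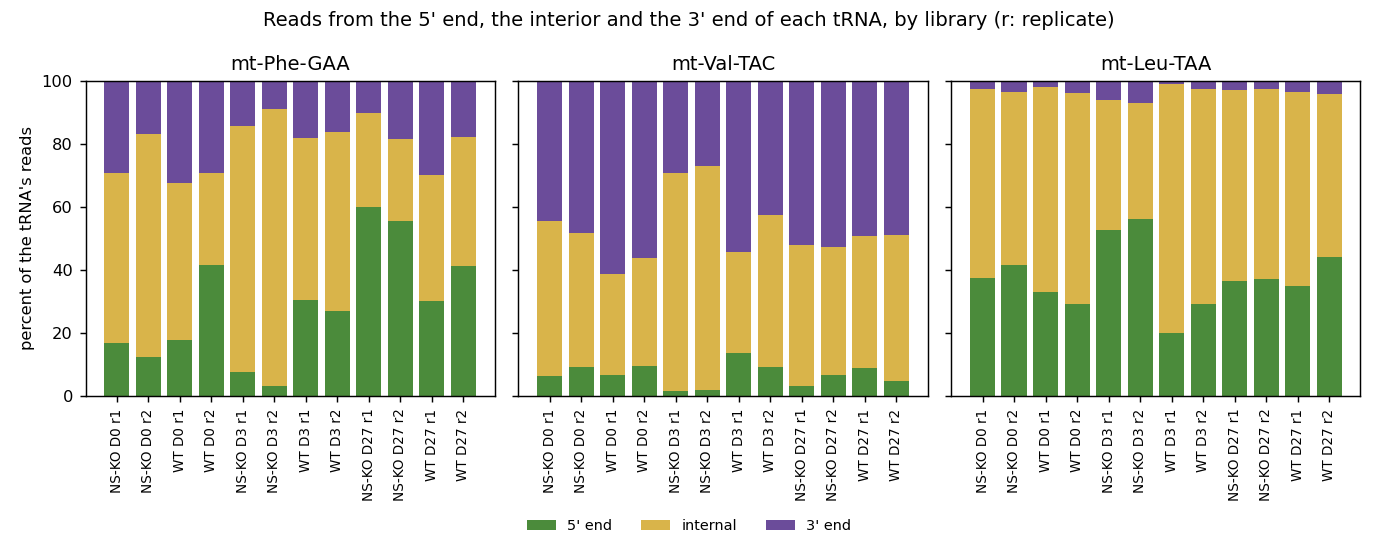
Percent of each tRNA's reads that begin at its 5′ end (green), lie inside it (yellow) or end at its 3′ end (purple), in each library, with NS-KO left of WT on each day. The NS-KO D3 libraries have the most 5′ reads for Leu (52.7% and 56.1%) and the most internal reads for Val (69.4% and 71.0%).

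The subtypes given in the table are named by length and position, such as tRF-5a and tRF-5b for short 5′ fragments, tRF-3a and tRF-3b for short 3′ fragments and tiRNA-3 for 3′ fragments cut at the anticodon loop, with the rest in Other. Other held 5243 Leu, 5363 Val and 710 Phe reads, so the named subtypes covered few of them. Of 10 sums by tRNA and subtype that were tested, 6 were called higher in NS-KO livers over days and 0 lower, with 30.6% higher and 15.3% lower among all 320 such sums. They were Val Other (log2 1.47), Phe Other (1.24), Val tRF-3a (1.33), Val tRF-3b (1.15), Leu tRF-5a (1.04) and Leu tRF-5b (0.91). The calls of Val tRF-3a, Val tRF-3b and Leu tRF-5a were lost with TMM factors from the sums (1.06, 0.94 and 0.82), without a filter and, with log2 values of 0.86 to 1.01, without single libraries (Leu tRF-5a without NS-KO D0 replicate 1, Val tRF-3a without WT D0 replicate 2 or WT D3 replicate 1, Val tRF-3b without NS-KO D0 replicate 2 or NS-KO D27 replicate 2), and that of Val tRF-3a also with TMM factors from fragments at 20 CPM (1.20) and with exact matches (1.05). At D3 5 of the 10 were called higher, against 19.1% of all. Among them Leu tRF-5a had 45 and 48 reads in NS-KO D3 livers, against 3 and 7 in WT D3 livers (log2 2.45 ± 0.57, limma, adjusted p = 0.0034). Leu tRF-5b had 198 and 181 reads in NS-KO D3 livers, against 35 and 40 in WT D3 livers (1.86 ± 0.37, adjusted p = 0.0012). Leu Other, in contrast, gave 0.63 ± 0.34 at D3 (adjusted p = 0.19). Val tiRNA-3 had 8 and 3 reads in NS-KO D3 livers, against 12 and 11 in WT D3 livers (-1.24 ± 0.58, adjusted p = 0.13). No subtype sum passed the interaction test.

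For single fragments, 643 of the 2999 members reached 20 CPM in at least 1 library and were tested, 47 of Phe, 339 of Val and 257 of Leu, and 2356 were not. In the shallowest libraries 20 CPM is 1 read. Of the 643, 539 passed only through NS-KO libraries, 190 of them only through NS-KO D3, and 18 only through WT libraries, so the counts of called members describe a set that had to be high in NS-KO. Over days 10 members (1.56%) were called higher and 0 lower, against 2.6% higher and 1.96% lower of all 22065 fragments. This count is unstable: without 1 library it ranged between 0 (without WT D0 replicate 2 or WT D3 replicate 2) and 208 (without NS-KO D3 replicate 1), and with voom weights it was 221. Over D0 and D27 only, limma called 0 members, with 30 higher and 2 lower at an unadjusted p under 0.05 and 238 higher with voom weights, against 0.412% and 1.41% of all. At D3 88 members (13.7%) were called higher in NS-KO livers and 0 lower, against 7.67% and 0.471% of all fragments. The count was 11 without WT D3 replicate 1, 17 without WT D3 replicate 2, 56 without NS-KO D3 replicate 2 and 208 without NS-KO D3 replicate 1. They were 72 Val, 13 Leu and 3 Phe fragments. Of the Val fragments called at D3, 56 were internal and 16 ended at the 3′ end, and of the Leu fragments 10 began at the 5′ end. At D0 2 were called higher, both of Phe, against 0.145% higher and 0.553% lower of all. At D27 limma called 0, with 17 higher and 3 lower at an unadjusted p under 0.05 and 4 higher with voom weights, against 0.127% and 0.408% of all.

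The fragments with the clearest differences were rare. Leu 1 to 26 had 4 and 12 reads in NS-KO D0 livers, against 1 and 1 in WT D0 livers. It had 20 and 22 reads in NS-KO D3 livers, against 0 and 1 in WT D3 livers, and 0 and 4 in NS-KO D27 livers, against 0 and 3 in WT D27 livers. Its log2 difference over days, 1.83 ± 0.42 (limma, adjusted p = 0.020), was the largest among called members.
Leu 1 to 26: attagggtggcagagccaggaaattg
Val 50 to 65: atgaccaatgaacact
Val 40 to 63: agaagatttcatgaccaatgaaca
Val 39 to 65: cagaagatttcatgaccaatgaacact
These 4 are shown because they had the largest called change or the smallest adjusted p-values. All 4 reached 20 CPM only in NS-KO libraries, and Val 40 to 63 only in NS-KO D3, so their calls are no independent support for a difference. Val 50 to 65 lies inside Val 47 to 67 and had 26 and 37 reads in NS-KO D3 livers, against 0 and 3 in WT D3 livers (log2 over days 1.64 ± 0.35, adjusted p = 0.015). Val 50 to 67 (1.27), Phe 19 to 35 (1.23) and Val 39 to 65 (1.17) were the other named calls over days. Phe 19 to 35 was also called at D0 (2.09, adjusted p = 0.048), with 4 and 6 reads in NS-KO D0 livers, against 1 and 0 in WT D0 livers. Phe 15 to 36, the other call at D0, had 4 reads in all, 2 in each NS-KO D0 library. Val 50 to 67 and Phe 19 to 35 also reached 20 CPM only in NS-KO libraries, and Phe 15 to 36 only in NS-KO D0. Their calls are no independent support for a difference either.

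At D3 the smallest adjusted p-values belonged to Val fragments that were almost confined to the 2 NS-KO D3 libraries. Val 40 to 63 had 13 and 15 reads in NS-KO D3 livers, against 0 and 0 in WT D3 livers, and 1 read in all other libraries together (log2 2.58 ± 0.41, limma, adjusted p = 0.0013). Val 39 to 65 had 13 and 24 reads in NS-KO D3 livers, against 0 and 0 in WT D3 livers (2.89 ± 0.48, adjusted p = 0.0016). Val 13 to 31 with C31T had 11 and 6 reads in NS-KO D3 livers and 0 in every other library (1.95 ± 0.32, adjusted p = 0.0015). It too entered the test only through the NS-KO D3 libraries, so its p-value is no independent support. The fitted values of fragments without reads in one group depend on the prior count and are no bounds. Against D0, 81 members were called higher in NS-KO D3 livers, against 7.52% of all fragments, and 2 lower, against 0.625%. Voom weights gave 35 higher and 10 lower, and the higher calls numbered 37 without NS-KO D0 replicate 2 and 187 without NS-KO D3 replicate 1. The smallest adjusted p-values belonged to Val 40 to 63, Val 13 to 31 C31T and Phe 31 to 50 (11 and 5 reads in NS-KO D3 livers, against 0 and 0 in NS-KO D0 livers). Each of these fragments entered the test only through the NS-KO D3 libraries, so these calls are no independent support. In WT livers limma called 0 members at D3 against D0, with 9 higher and 3 lower at an unadjusted p under 0.05 and 0 called with voom weights, and of all 22065 fragments it also called 0.0%. D27 against D0 in NS-KO livers gave 0 called members, with 20 higher and 37 lower at an unadjusted p under 0.05 and 0 with voom weights, against 0.0317% and 0.0408% of all fragments. The interaction at D3 was called for 4 members, all higher (0.622% of the members tested), against 1.41% higher and 0.0317% lower of all.

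The most abundant member did not share this pattern. Leu 22 to 58 C58A had 367 and 682 CPM in NS-KO D0 livers, against 342 and 328 CPM in WT D0 livers, and 490 and 556 CPM in NS-KO D27 livers, against 287 and 167 CPM in WT D27 livers. In CPM it was lower in NS-KO livers only at D3, with 108 and 134 CPM (24 and 17 reads), against 748 and 357 CPM (61 and 69 reads) in WT D3 livers. Its scaled log2 difference was -0.45 ± 0.58 at D0 and 0.23 ± 0.58 at D27, neither called. Its scaled log2 difference at D3 was -1.96 ± 0.58 (limma, adjusted p = 0.051), on the other side of 0 from Leu as a whole. In contrast, Leu 1 to 25 had 53 and 46 reads in NS-KO D3 livers, against 2 and 11 in WT D3 livers (2.45 ± 0.69, adjusted p = 0.036), and Leu 1 to 22 had 61 and 59 reads in NS-KO D3 livers, against 13 and 9 in WT D3 livers (1.85 ± 0.62, adjusted p = 0.083). Val 35 to 72, which ends in CCA, gave -0.99 ± 0.56 at D3 (adjusted p = 0.45) and Val 40 to 72 gave 0.68 ± 0.60 (adjusted p = 0.85).

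Many reads carried a base that differs from the tRNA, most often as their last base. Mismatched reads were 33.9% of Phe, 43.96% of Val and 58.0% of Leu reads, and the mismatch was at the last base in 49.8%, 71.8% and 73.2% of them. At Leu position 58 the share of covering reads with a mismatch was 23.3% ± 9.6 in NS-KO livers and 37.6% ± 5.0 in WT livers (SD, n = 6 each). This gave an exact permutation p of 0.0093 but 0.093 after adjustment over the 10 positions tested, and 91.3% of these mismatches were at the last base of the read. C58A made up 844 of the 933 mismatched reads there. Position 9 behaved differently, since no mismatch at Leu position 9 was at a last base. There 272 of 2593 covering Leu reads differed, with G9C (115 reads) and G9A (80) the most frequent, and the share was 9.97% ± 2.2 in NS-KO livers and 9.13% ± 3.2 in WT livers (exact permutation p = 0.56). At position 9 of Phe 56 of 118 covering reads differed, mostly A9T (40 reads), and of Val 72 of 239, mostly A9T (66 reads). Pooled over libraries, that was 42.6% of Phe reads in NS-KO livers and 52.6% in WT livers, and 24.6% of Val reads in NS-KO livers and 36.7% in WT livers. Coverage there was as low as 3 reads in a library, so no test was made.

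Over the 12 libraries the log2 levels most like those of Phe were those of Val (Pearson r = 0.964), mt-Gln-TTG (0.942) and mt-Pro-TGG (0.938). Those most like Val were mt-Leu-TAG (0.974), mt-Gln-TTG (0.965) and Phe. Those most like Leu were the precursor reads of the same gene (0.950), mt-Leu-TAG (0.930) and mt-Thr-TGT (0.930). Phe and Leu had r = 0.874 and Val and Leu 0.921. These values are descriptions over 6 groups of libraries that share depth and scaling, among 158 other sums.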

How the data were processed

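Total RNA was pretreated to remove terminal blocks and m1A and m3C methyl groups. After amplification, products from RNA of 14 to 40 nt were selected and sequenced. Per the methods, the authors trimmed reads with cutadapt, checked them with FastQC and aligned them with Bowtie with at most 1 mismatch, to mature and then to precursor tRNAs; versions are not given in the sources used here. The deposited table is other than a plain matrix: blocks of aligned text, with a whole-number read count per sequence and library, unnormalized. The authors used edgeR and a CPM of at least 20; here the counts, held in text lines, were fitted with limma 3.58.1 in R 4.3.3.

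Each distinct sequence was counted once. Where a sequence stood under Other and under a subtype of its own (31 sequences), the subtype was used. Fragments entered at 20 CPM in at least 1 library, and sums at 10 reads in at least 2 libraries. Values were log2 CPM with a prior count of 2, 1 mean per group over all 12 libraries, a mean-variance trend and Benjamini-Hochberg adjustment over all features at 0.05. TMM factors were computed over the 2273 fragments with at least 10 reads in at least 2 libraries. They had first been computed over all fragments at 20 CPM, and on simulated data without differences those factors moved with library depth, so the set was changed after results were known; both are reported. Shares, make-up and mismatches were compared by exact permutation of genotype within days (216 arrangements), in Python 3.11.15. Scripts were tested on simulated data. Values after ± are standard errors of the limma fit or SDs over libraries. The CPM that a count of 0 allows covers counting error only. Replicate numbers were not taken to pair libraries in the main fit. Members and lists were chosen with earlier results of these data known.

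Named fragments were the 5 most abundant of each tRNA, the 5 largest called changes over days in each direction, and the 3 smallest adjusted p-values in each other contrast. Alternatives were other scalings, a prior count of 0.5, voom weights, a replicate block, other filters, exact matches only and leaving out each library. D0 with D27 only, the ratios between tRNAs, the TMM sets and leaving out libraries at single positions were added after the data were seen.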

Additional observations from a re-analysis of the deposited data

Results flagged for a closer look

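The change after CCl4 at D3 differed between the genotypes, by the interaction test in limma, for 4 single fragments in the positive direction and 0 in the negative one, which was 0.622% of the 643 members tested, against 1.41% of all fragments called higher. At an unadjusted p under 0.05 there were 118 positive and 13 negative members, and voom weights called 3 positive and 0 negative. The count was 1 with the replicate block, 43 with TMM factors over fragments at 20 CPM and between 0 (without NS-KO D0 replicate 2) and 166 (without NS-KO D3 replicate 1) with 1 library left out. All 4 were internal Val fragments with few reads. The 3 named below reached 20 CPM only in the NS-KO D3 libraries and so entered the test only through the group in which they were high, which makes their p-values no independent support. Val 40 to 63 gave an interaction of 2.58 ± 0.59 on the log2 scale (adjusted p = 0.043), with 13 and 15 reads in NS-KO D3 livers, against 0 in the NS-KO D0, WT D3 and WT D0 libraries. Val 35 to 65 gave 2.06 ± 0.47 (adjusted p = 0.046), with 10 and 5 reads in NS-KO D3 livers and 1 read in WT D0 livers. Val 13 to 31 with C31T gave 1.95 ± 0.45 (adjusted p = 0.047), with 11 and 6 reads in NS-KO D3 livers and 0 elsewhere. The part that the larger share of mitochondrial reads in these 2 libraries (30.3% and 50.1%) had in the difference was not tested.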

How the results depend on the processing

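Values are log2 differences unless said otherwise, and the cause of a change was not tested. Of 476 comparisons of 74 results with other settings, 372 kept their direction and side of the threshold and 104 did not. At 3.63 to 21.3 CPM per read, single fragments of few reads are at the limit of depth, and counts of calls among them depended on nearly every choice. Val and Phe over days and at D3 stayed called under every scaling but that to the other mitochondrial tRNAs, and Leu did not. No member is listed under another tRNA, so including shared sequences gave no value.

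Scaled to the other mitochondrial tRNAs, 0 fragments were higher and 7 lower over days. Over days Leu, Phe and Val were -0.73, -0.029 and 0.15. Leu and Val were -0.44 and 0.26 at D0. Leu, Phe and Val were -1.23, 0.29 and 0.38 at D3 and -0.53, -0.50 and -0.21 at D27. Leu and Phe were -0.59 and 0.50 at D3 against D0 in NS-KO, and the Leu interaction at D3 was -0.79. By subtype, Leu Other, tRF-5a and tRF-5b were -0.81, 0.10 and -0.33, Phe Other and tRF-3b 0.016 and -0.12, and Val Other, tRF-3a, tRF-3b, tRF-5a (then called) and tiRNA-3 0.19, 0.63, 0.51, -1.14 and -0.36. As shares of mature mitochondrial reads, the differences in percentage points were -1.12 for the 3 tRNAs, 0.0132 for Phe, 0.269 for Val and -1.40 for Leu, and outside tRF-5c the Leu share differed by 0.0772.

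With library size only, 27 fragments were higher. Leu and Phe at D0 (1.52 and 1.99), Leu and Val at D27 (1.32 and 1.64), Leu Other (1.15), Phe tRF-3b (1.12) and Val tiRNA-3 (0.91) became called. Leu at D3 (0.84) and Phe at D3 against D0 in NS-KO (1.27) lost their calls. The sign turned for Leu at D27 against D0 in WT (0.0097), the Leu interaction at D3 (-0.67) and Val tRF-5a (0.41). Without tRF-5c in the library size, calls were lost for Leu over days (0.15) and at D3 (0.24), Val at D0 (0.79), Leu tRF-5a and tRF-5b (0.76 and 0.53) and Val tRF-3a and tRF-3b (1.10 and 0.94), and the Leu interaction at D27 became 0.026.

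With TMM factors over fragments at 20 CPM, 29 fragments were higher. Leu over days (0.35), Val at D0 (0.82) and Val tRF-3a (1.20) lost their calls, Leu at D3 against D0 in NS-KO (1.06) and the Val interaction at D3 (1.85) gained one, and Leu and Phe at D27 were -0.13 and -0.10. With TMM factors over sums, Leu over days (0.20), Val at D0 (0.70), Leu tRF-5a (0.82), Val tRF-3a (1.06) and Val tRF-3b (0.94) lost their calls, Leu at D3 against D0 in NS-KO (0.80) and the Val interaction (1.67) gained one, and Leu and Phe at D27 (-0.16 and -0.15) and Leu at D27 against D0 in WT (0.082) changed sign.

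Without a filter 0 fragments were higher, and calls were lost for Val at D0 (1.17), Leu at D3 (0.84), Leu tRF-5a (1.04), Val tRF-3a (1.33) and Val tRF-3b (1.15), where more features were tested. With 10 reads in 2 libraries 1 fragment was lower. A prior count of 0.5 gave 5 higher fragments and left Val tRF-3b (1.69) not called. Voom weights gave 221 higher and 1 lower. The replicate block left Leu at D3 (0.84, adjusted p = 0.063) not called, gave 11 higher fragments and changed no other call of a sum. Differences between replicates 1 and 2 of each group were correlated between groups over fragments. These correlations ran from -0.12 to 0.28, with 1 of 15 above 0.1, so they gave little sign of pairing by replicate number.

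With exact matches only, 6 fragments were higher. Val at D0 (0.93), Phe at D3 against D0 in NS-KO (1.22) and Val tRF-3a (1.05) lost their calls. Leu and Phe at D27 (-0.21 and -0.50), Leu and Val at D27 against D0 in WT (0.14 and -0.030), Phe 5′ reads (3.95 percentage points), Phe mean length (0.877 nt) and Leu 3′ reads (-0.198 percentage points) changed sign. Counting each distinct sequence once gave 0.364 nt for Phe mean length. With D0 and D27 only, 0 fragments were higher, Leu and Phe were 0.39 and 0.65, Leu tRF-5a and tRF-5b 0.33 and 0.43, Phe Other 0.67, Val tRF-3a and tRF-3b 1.10 and 0.55, none called, Val tRF-5a 0.27, and Val tiRNA-3 1.26, called.

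Leaving out 1 library changed 84 of 878 comparisons. Ranges were 0 to 208 higher and 0 to 4 lower fragments, 0.47 to 0.93 for Leu over days, 0.32 to 0.84, 0.87 to 1.35 and 1.09 to 1.54 for Leu, Phe and Val at D0, 0.64 to 1.59 for Leu at D3, and -0.14 to 0.71 and 0.58 to 1.05 for Phe and Val at D27. At D3 against D0 in NS-KO they were 0.28 to 1.11 for Leu and 1.24 to 2.30 for Phe, and at D27 against D0 in WT -0.27 to 0.016 for Leu, -0.51 to 0.016 for Phe and -0.024 to 0.13 for Val. Leu and Phe at D0 and Val at D27 were called without NS-KO D3 replicate 2, Phe at D0, Val at D27 and Leu at D3 against D0 in NS-KO were called without NS-KO D3 replicate 1, and the sign of Phe at D27 turned without NS-KO D27 replicate 2. The Val interaction at D3 ranged between 0.80 and 1.98 (called without NS-KO D3 replicate 1) and the Leu interaction at D27 between -0.41 and 0.0066. Leu Other ranged between 0.39 and 0.85, Leu tRF-5a between 0.86 and 1.24, Phe tRF-3b between 0.39 and 1.02, Val tRF-3a between 0.98 and 1.81, Val tRF-3b between 0.89 and 1.42 and Val tRF-5a between -0.29 and 0.22. The calls were lost for Leu tRF-5a without NS-KO D0 replicate 1, for Val tRF-3a without WT D0 replicate 2 or WT D3 replicate 1 and for Val tRF-3b without NS-KO D0 replicate 2 or NS-KO D27 replicate 2, and gained for Leu Other without either NS-KO D3 library and for Phe tRF-3b without NS-KO D27 replicate 1. Phe mean length ranged between -0.852 and 0.451 nt, Phe mismatched reads between -4.58 and 5.14 percentage points, and the log2 Val to Leu ratio between 0.77 and 0.99. Mismatch shares ranged between -0.0793 and 2.85 points at Val 71, -2.00 and 4.07 at Val 72, and -5.83 and 1.58 at Leu 70.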
